A study of Mus musculus with 2 samples.

Results

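The 9 genes described here mark mural cells, the pericytes and vascular smooth muscle cells that wrap the vessel wall: Rgs5, Abcc9, Pdgfrb, Cspg4, Notch3, Myh11, Tagln, Cnn1 and Mcam. They were chosen by gene symbol, and all 9 were found among the 55536 genes of the deposited tables, with 35 of the 141864 annotated transcripts. Total RNA-seq had been made from gastrocnemius, the large calf muscle, of female B6CASTF1/J mice, an F1 hybrid of a C57BL/6J and a CAST/EiJ parent. The sample description gives an age of 18 to 20 months, while the age field of the same records is not filled in. There was 1 group of 2 libraries, biological replicates 1 and 2, each made from 300 ng of RNA to which ERCC spike-ins, synthetic reference RNAs, had been added. The libraries carry different tissue identifiers but the same donor identifier, so whether they came from separate animals rests on the replicate labels, and the spread between them may be technical. No treatment, genotype or age contrast was present, so the data give levels, transcript forms and the spread between 2 libraries, and no p-value.

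Pericytes sit on capillaries and share their basement membrane with the endothelium, while smooth muscle cells encircle arterioles, arteries and veins and set their calibre by contracting. Endothelial cells release the growth factor PDGF-B, which recruits mural cells through the receptor encoded by Pdgfrb, and endothelial Notch ligands act on Notch3, the Notch receptor of mural cells. Contractile smooth muscle genes such as Myh11, Tagln and Cnn1 are driven by serum response factor with its co-activator myocardin. In skeletal muscle these cells make up a small share of a tissue whose RNA comes mostly from fibres.

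Replicate 1 had 38654555 counts over genes and replicate 2 had 43722892. Markers of fibres far exceeded those of vessel cells. The 4 skeletal fibre markers summed to 57043 and 54014 TPM, a measure of level scaled for transcript length and library size. Endothelial markers summed to 77.7 and 55.3 TPM over 8 genes, fibro-adipogenic markers to 434 and 445 TPM over 7, erythrocyte markers to 399 and 395 TPM over 4, and the 9 mural genes to 167.5 and 171.02 TPM. The fibro-adipogenic sum came mostly from Gsn (238 and 230 TPM) and Dcn (133 and 105 TPM). It hides 2 of the 7 genes that were at least 2-fold apart. Col1a1 (9.69 and 28.3 TPM) was 3.25-fold and Col3a1 (12.5 and 37.3 TPM) 3.66-fold higher in replicate 2. Of the 7 genes, 6 were higher in replicate 2 and 1 lower. The mural sum includes all of Abcc9, which muscle fibres also express. The libraries differed most in slow fibre markers, whose 5 genes summed to 288 TPM in replicate 1 and 1682 TPM in replicate 2. Each of the 5 was at least 2-fold higher in replicate 2, while 4.64% of all genes tested were at least 2-fold apart. No marker of the 9 lists of other cell types was at 0 in both libraries. In bulk tissue, fewer cells of a type and less RNA per cell cannot be told apart.

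Each of the 9 genes reached 1 TPM in both libraries, a level reached by 19.7% of all annotated genes. Their levels spanned from just above that minimum to more than 50 TPM and fell into 5 tiers that did not overlap over the 2 libraries. Within a tier the values of the genes overlapped, so no order can be read there. The mural median was 7.59 TPM in replicate 1 and 8.63 TPM in replicate 2, beside 8.56 and 7.81 TPM over all genes detected in both.

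Rgs5 and Abcc9 formed the highest tier. Rgs5 (ENSMUSG00000026678.10, mm10 chromosome 1, 169655501 to 169695813, plus strand) encodes a regulator that shortens signalling of G protein-coupled receptors and is a standard pericyte marker. It was at 52.2 TPM in replicate 1 and 66.9 TPM in replicate 2 (59.5 ± 10.4, SD, n = 2), a level above that of 90.5% of the detected genes. Abcc9 (ENSMUSG00000030249.15, chromosome 6, 142587862 to 142702315, minus strand) encodes SUR2, the regulatory subunit of ATP-sensitive potassium (KATP) channels, which couple membrane potential to the energy state of the cell. Its level was 59.96 and 58.0 TPM (58.98 ± 1.39, n = 2). The second tier held only Tagln (ENSMUSG00000032085.5, chromosome 9, 45929619 to 45936058, minus strand), the gene of transgelin, an actin-binding protein of smooth muscle, at 26.0 and 17.9 TPM (21.9 ± 5.68, n = 2).

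Myh11 and Mcam formed the middle tier. Myh11 (ENSMUSG00000018830.10, chromosome 16, 14194535 to 14291372, minus strand), the smooth muscle myosin heavy chain, was at 8.66 and 8.63 TPM, nearly equal in the 2 libraries. Mcam (ENSMUSG00000032135.15, chromosome 9, 44134469 to 44142727, plus strand), the adhesion molecule CD146 of pericytes, smooth muscle and endothelium, was at 7.59 and 8.69 TPM. The receptors came next. Notch3 (ENSMUSG00000038146.8) was at 5.15 and 4.20 TPM (4.67 ± 0.672, n = 2) and Pdgfrb (ENSMUSG00000024620.11) at 4.92 and 4.06 TPM (4.49 ± 0.608, n = 2). The ratio of Notch3 to Pdgfrb was 1.05 and 1.03, so the receptors of the 2 main endothelial signals to mural cells stood at nearly the same level.

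The lowest tier held Cnn1 (ENSMUSG00000001349.5), the gene of calponin 1, an actin- and myosin-binding protein of differentiated smooth muscle, at 1.54 and 1.37 TPM, and Cspg4 (ENSMUSG00000032911.6), the gene of the NG2 proteoglycan on the pericyte surface, at 1.53 and 1.27 TPM. Cnn1 rests on 52 and 50 counts and Cspg4 on 330 and 331, while Abcc9 had 12372 and 13607. Kallisto kept the tiers in the same order but parted 2 of the pairs. Mcam (13.3 and 15.5 TPM) lay above Myh11 (10.97 and 10.4 TPM) without overlap, and Cnn1 (2.28 and 2.03 TPM) above Cspg4 (1.80 and 1.52 TPM).

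**Figure D1:**
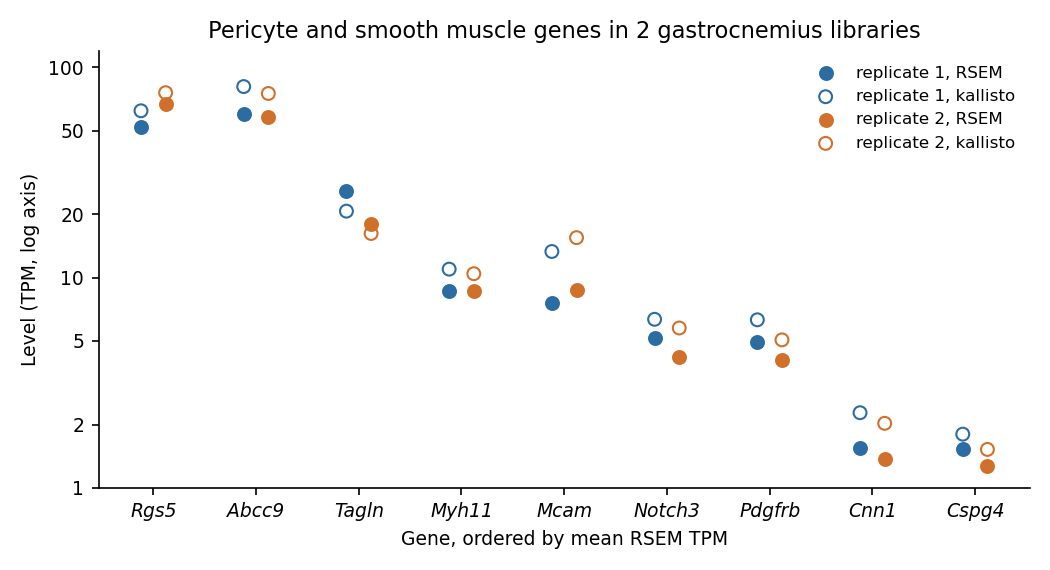
Level of each of the 9 mural genes in TPM on a log axis, 1 point per library and per quantifier (RSEM and kallisto). Rgs5 and Abcc9 sit above 50 TPM in both libraries by RSEM, and Cnn1 and Cspg4 below 2 TPM.

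Genes used as markers of the same cell type thus differed widely in level. Rgs5 was 10.6 times Pdgfrb in replicate 1 and 16.5 times in replicate 2, and 34.1 and 52.7 times Cspg4, another surface marker of pericytes. Among the contractile genes, Tagln was 16.9 and 13.1 times Cnn1 by RSEM, and 9.10 and 8.00 times by kallisto. Myh11 was 5.62 and 6.30 times Cnn1. Tagln was 3.00 and 2.08 times Myh11 by RSEM, and 1.89 and 1.55 times by kallisto.

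Transcript forms were examined next, because Abcc9, Myh11 and Mcam each encode proteins that differ in a short stretch and are known from different tissues. The annotated mm10 sequences (GENCODE M21) that set the forms apart are printed in the coding direction. Abcc9 ends in 1 of 2 alternative coding exons. The upstream end gives SUR2A, the form known from heart and skeletal muscle fibres, and the downstream end gives SUR2B, the form known from smooth muscle. Both coding ends are 135 bases long and 69 of these bases are identical, a 51.1% identity. The ends are shown because they separate a fibre form from a vascular form within a gene used as a mural marker. Capitals mark the 66 bases that differ, and the stop codon is left out.
Abcc9 upstream coding end (chr6:142594008-142594142, minus strand, exon 39 of 40 in Abcc9-204): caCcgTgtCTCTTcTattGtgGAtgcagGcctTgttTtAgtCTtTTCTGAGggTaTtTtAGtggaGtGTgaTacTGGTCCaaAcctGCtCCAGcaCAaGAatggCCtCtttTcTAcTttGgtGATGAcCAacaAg
Abcc9 downstream coding end (chr6:142590369-142590503, minus strand, last exon of Abcc9-203): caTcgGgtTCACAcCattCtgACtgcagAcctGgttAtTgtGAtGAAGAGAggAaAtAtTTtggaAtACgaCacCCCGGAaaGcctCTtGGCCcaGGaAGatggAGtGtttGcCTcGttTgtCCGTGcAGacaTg

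Most Abcc9 RNA was assigned to the upstream, SUR2A-type end. By RSEM these transcripts took 53.2 TPM in replicate 1 and 48.2 TPM in replicate 2, which is 88.8% and 83.1% of the gene. The downstream, SUR2B-type end took 5.22 and 9.16 TPM, or 8.71% and 15.8% of the gene, and was higher in replicate 2. Kallisto gave 87.9% and 82.4% to the upstream end and 3.26% and 7.95% to the downstream end. Both tools thus placed over 80% of Abcc9 at the upstream end in each library and gave the downstream end the larger share in replicate 2, but they differed in the size of that share. The leading transcript was Abcc9-204 with 80.6% and 71.7% of the gene by RSEM (64.3% and 57.9% by kallisto). Abcc9-202, also with the upstream end, took 8.22% and 11.4% by RSEM and 20.7% and 22.8% by kallisto. Abcc9-204 holds the downstream exon as untranslated sequence behind its own end, so reads in that exon do not by themselves separate the forms. Counted by the smooth muscle end alone, Abcc9 was close to Notch3 (5.15 TPM) in replicate 1 and to Mcam (8.69 TPM) in replicate 2 by RSEM, and at 2.64 and 5.97 TPM by kallisto. How much of the upstream form came from mural cells was not tested.

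The KATP channel is built of pore and regulatory subunits that are known to differ between muscle fibres and vessels. Its other 3 subunit genes were measured beside Abcc9. Kcnj11, the gene of the pore Kir6.2 of striated muscle and pancreatic beta cells, was at 67.2 and 58.2 TPM. Kcnj8, the gene of Kir6.1, the pore of vascular smooth muscle and pericytes, was at 2.82 and 1.87 TPM. Abcc8, the gene of SUR1, the regulatory subunit best known from pancreatic beta cells and neurons, was at 5.42 and 2.57 TPM. The whole Abcc9 gene was 0.892 and 0.996 times Kcnj11 and 21.3 and 31.0 times Kcnj8. The downstream end alone was 1.85 and 4.90 times Kcnj8 by RSEM, but 0.741 and 2.71 times by kallisto, so their order in replicate 1 depends on the tool. Kcnj11 was 23.8 and 31.1 times Kcnj8, and the upstream end 10.2 and 5.26 times the downstream end by RSEM, so the fibre-type subunits led in both libraries.

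**Figure D2:**
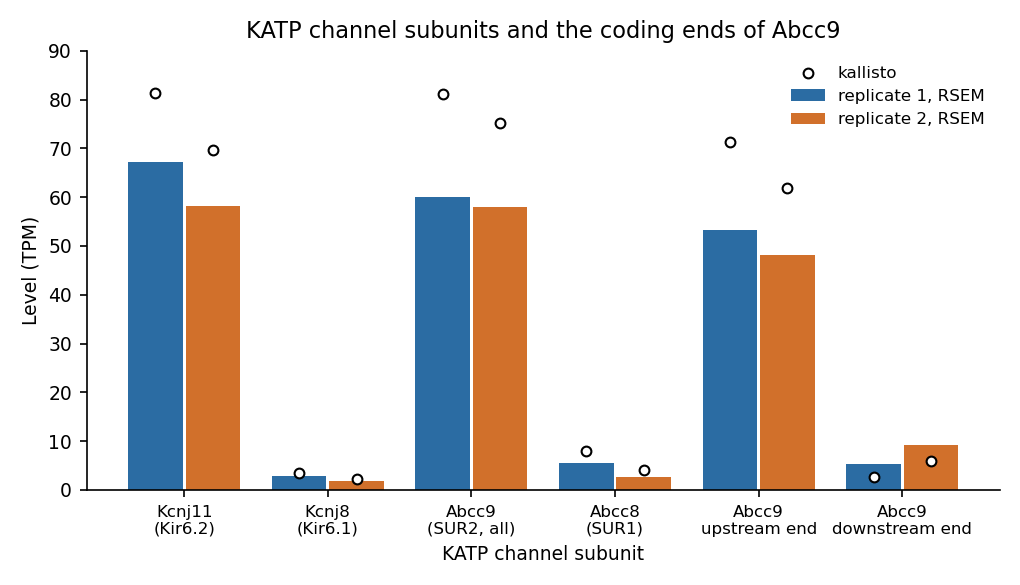
Levels of the KATP channel genes and of the 2 Abcc9 ends in TPM, with bars for RSEM in each library and open circles for kallisto. The RSEM bars of Kcnj11 and the upstream end of Abcc9 lie between 48.2 and 67.2 TPM, and those of Kcnj8, Abcc8 and the downstream end at or below 9.16 TPM.

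Myh11 varies at 2 places. An exon of 21 bases (chr16:14248580-14248600, minus strand, exon 6 of 42 in Myh11-204) adds residues near the nucleotide pocket of the motor head and gives SM-B, the form known from fast smooth muscle, while the form without it is SM-A. At the other end, inclusion of a further exon replaces the long tail (SM1) by a short one (SM2). The stretches are shown because each decides which myosin is made. Capitals mark the inserted exon in the first line and the whole coding part of the short tail in the third.
Myh11 with the insert (Myh11-204): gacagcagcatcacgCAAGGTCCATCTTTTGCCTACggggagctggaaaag
Myh11 without the insert (Myh11-201): gacagcagcatcacgggggagctggaaaag
Myh11 short tail end (chr16:14198061-14198088, minus strand, exon 41 of 42 in Myh11-202): AGGGCCCCCCCCACAGGAAACTTCGCAG
Myh11 long tail end (chr16:14195055-14195184, minus strand, last exon of Myh11-201): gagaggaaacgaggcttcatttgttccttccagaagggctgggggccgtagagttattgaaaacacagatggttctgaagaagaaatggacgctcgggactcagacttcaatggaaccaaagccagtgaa

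Most Myh11 RNA was assigned to the transcript without the insert and with the long tail. No annotated transcript joins the insert to the short tail, so the shares cannot show whether that pairing occurs. This transcript, Myh11-201, took 61.9% and 67.7% of the gene by RSEM and 51.1% and 55.4% by kallisto. The transcript with the insert, Myh11-204, took 28.7% and 26.5% by RSEM and 33.4% and 33.6% by kallisto. The short tail, in Myh11-202, took 8.42% and 5.32% by RSEM and 14.8% and 10.6% by kallisto. Both tools kept this order in each library, and the shares of the insert form differed more between the tools than between the libraries. Skeletal muscle fibres build their thick filaments from other myosin heavy chain genes.

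Mcam has a long and a short cytoplasmic tail. The long tail needs an exon of 118 bases, which the short form skips. It is shown because the 2 tools gave the forms with and without it different shares of the gene.
Mcam skipped exon (chr9:44141275-44141392, plus strand, exon 15 of 16 in Mcam-201): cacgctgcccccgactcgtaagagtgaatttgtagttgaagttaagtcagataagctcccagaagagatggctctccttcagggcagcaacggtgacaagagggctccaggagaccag

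By RSEM, Mcam-201 with the exon was at 4.11 TPM in replicate 1 and 6.36 TPM in replicate 2, or 54.2% and 73.2% of the gene. Mcam-202 without it was at 3.25 and 2.18 TPM, or 42.8% and 25.1%. The form with the exon led in both libraries, and more clearly in replicate 2. Kallisto gave 40.6% and 49.3% to Mcam-201 and 26.1% and 11.0% to Mcam-202, and left 33.3% and 39.7% to other annotated transcripts. Of these, Mcam-203 took 19.6% and 16.0%, Mcam-205 13.7% and 7.74%, and Mcam-206 0.006% and 16.0%. In TPM, kallisto put Mcam-201 at 5.40 and 7.63 and Mcam-202 at 3.48 and 1.70. The order of the 2 main forms was thus the same with both tools. Their shares of the whole gene were not, because kallisto gave more to the other transcripts.

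**Figure D3:**
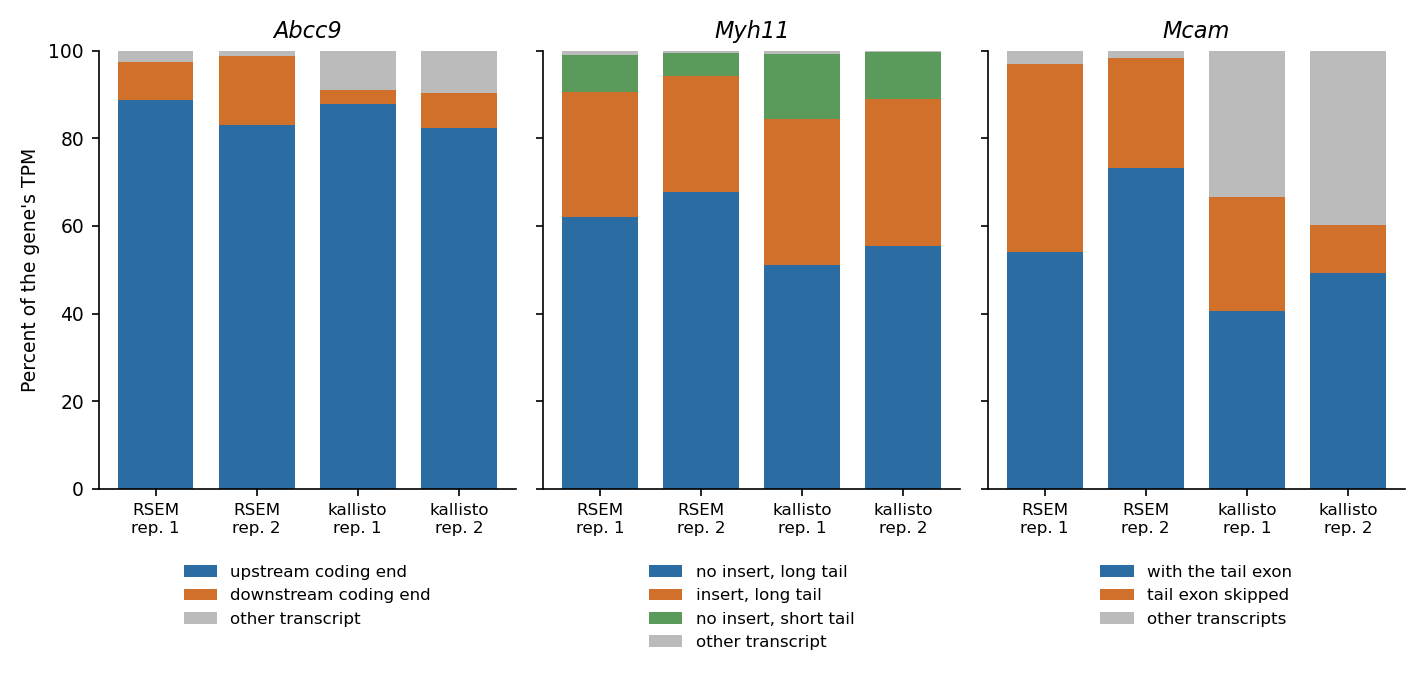
Share of each gene's TPM taken by the alternative forms of Abcc9, Myh11 and Mcam, in percent, for each library by RSEM and by kallisto. The upstream end takes over 80% of Abcc9 in all 4 estimates, and the largest gap between the tools is in Mcam.

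Other members except Cnn1 were carried mainly by 1 transcript, with exceptions where an incomplete model drew reads. Rgs5-201 took 98.3% and 99.3% of its gene, Pdgfrb-201 100% in both, and Cspg4-201 85.0% and 96.9% by RSEM. Notch3-201 took 100% and 98.8% by RSEM, but by kallisto an incomplete transcript, Notch3-202, took 17.9% in replicate 2. For Tagln, RSEM gave 48.5% and 33.2% of Tagln TPM to Tagln-202, an incomplete model of 369 bases, on 98.35 and 52.71 of the 673 and 638 counts of the gene. TPM divides by length, which raises the share of a short model. Kallisto gave it none. The full-length Tagln-201 alone was at 13.1 and 11.9 TPM by RSEM and 20.5 and 16.1 TPM by kallisto. Cnn1 was spread over 5 transcripts, and the tools differed on which led. By RSEM counts Cnn1-201 led in both libraries (28.6 and 31.8 counts), while by RSEM TPM Cnn1-204 led in replicate 1 (33.3%) and Cnn1-205, an incomplete model, in replicate 2 (42.3%). Kallisto gave Cnn1-205 the largest share in both, at 39.9% and 79.9%. Cnn1-203 took 13.1% by RSEM and 26.4% by kallisto in replicate 1. Cnn1-202, an incomplete model, took 25.5% by RSEM in replicate 2. With 52 and 50 counts over the gene these shares carry little weight.

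The 2 libraries were then compared gene by gene, as the ratio of replicate 2 over replicate 1 after TMM scaling, which sets the bulk of genes equal. None of the 9 genes was at least 2-fold apart, beside 4.64% of the 12969 genes tested, and none was at least 1.5-fold apart, beside 13.7% of all genes. Counts are the base of these ratios, and intervals at 95% cover counting error only.

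Rgs5 had 5954 counts in replicate 1 and 8711 in replicate 2, and was 1.43-fold higher in replicate 2 (interval 1.39 to 1.48). Mcam had 602 and 798 counts and was 1.30-fold higher (1.17 to 1.45). Both stayed higher in replicate 2 with every scaling, filter and quantifier tried. With TMM scaling they were the farthest from equality. With spike-in totals Notch3 (log2 ratio -0.38), Pdgfrb (-0.35) and Tagln (-0.33) were farther from equality than Rgs5 (0.30) and Mcam (0.15). As a ratio of TPM Tagln was farthest (-0.53). These settings also moved the median log2 ratio of all genes, to -0.22 with spike-in totals and -0.15 for TPM. Relative to those medians Rgs5 remained the farthest member. Abcc9 was 1.08-fold higher (1.05 to 1.10) and Myh11 1.11-fold higher (1.04 to 1.19), but scaling by spike-in totals or taking the ratio of TPM put both lower in replicate 2, as did library totals for Abcc9. Notch3, with 1180 and 1079 counts, was 1.12-fold lower in replicate 2 (1.03 to 1.21), and lower with each of the other settings too.

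For the other 4 genes the counting interval included equality. Tagln had 673 and 638 counts (ratio 0.929, interval 0.832 to 1.04), although its TPM log2 ratio was -0.53, with the incomplete transcript at 12.6 and 5.96 TPM. Pdgfrb had 757 and 707 counts (ratio 0.915, interval 0.825 to 1.02). Cspg4 (ratio 0.983, interval 0.841 to 1.15) and Cnn1 (ratio 0.944, interval 0.626 to 1.42) lay slightly above equality by kallisto. The interval left out equality for 5 of 9 genes, beside 46.4% of all genes. In all, 4 of the 9 ratios were above equality and 5 below, beside 49.8% and 50.2% of all genes. The median log2 ratio of the 9 was -0.03, beside -0.0009 over all genes, and their median distance from 0 was 0.13, beside 0.20. Endothelial markers, which mark the cells that mural cells wrap, had a median log2 ratio of -0.65, with 7 of 8 lower in replicate 2. Their part in the mural values, and that of the slow fibre difference, was not tested.

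**Figure D4:**
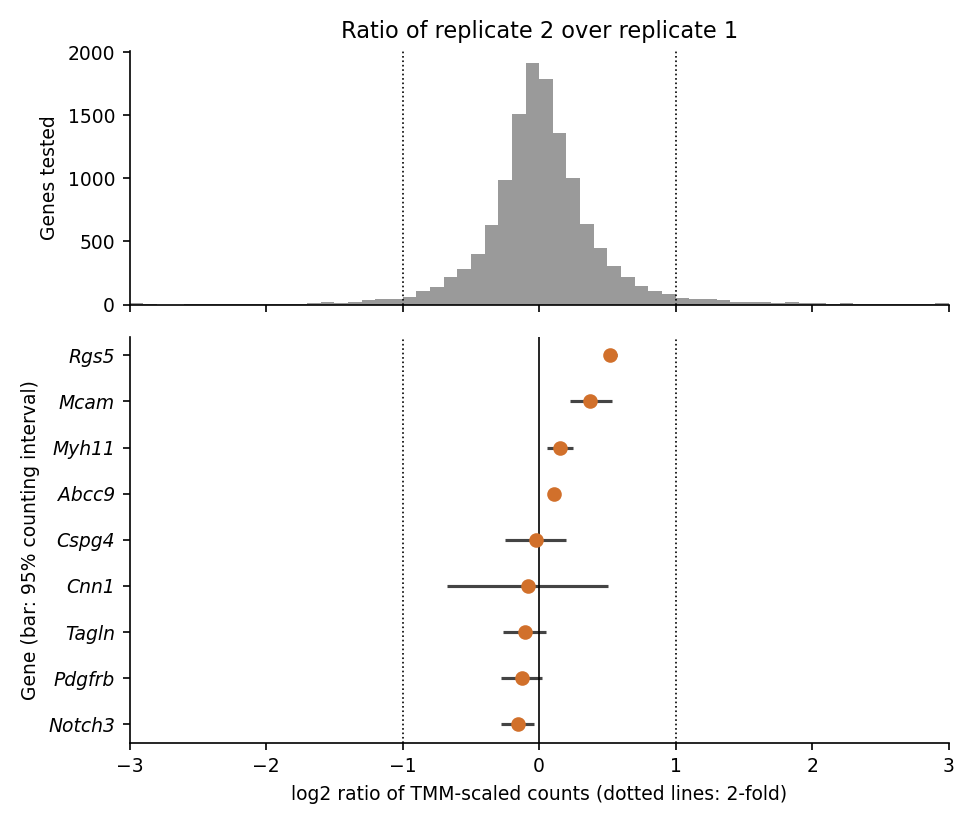
Log2 ratio of replicate 2 over replicate 1 for the 9 genes after TMM scaling, with 95% counting intervals, beside the distribution over the 12969 genes tested. All 9 points lie inside 1.5-fold (dotted lines mark 2-fold), and Rgs5 at 0.52 is the highest. Abcc9 and Myh11 fall below 0 with spike-in scaling or as TPM, and Abcc9 also with library totals. Those settings also put the median of all genes below 0. Cspg4 and Cnn1 rise above 0 by kallisto.

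Genes that share pathways or cells with the 9 were taken from lists set by symbol, chosen with earlier results of these data known. Among 26 further mural and smooth muscle genes, 17 reached 1 TPM in each library, beside 19.7% of all annotated genes. Synpo2, an actin-binding protein also found at the Z-disc of muscle fibres, was highest at 112.5 and 124.4 TPM. Smtn, the gene of smoothelin, was at 31.4 and 35.0 TPM, and Acta2, smooth muscle actin, at 27.6 and 22.6 TPM. Acta2 thus stood well above Myh11 and Cnn1. Tagln was above both too, but by kallisto only 1.89 and 1.55 times Myh11. Of 20 genes tested, 13 were higher in replicate 2 and 7 lower, beside 49.8% and 50.2% of all genes. The split was 7 and 13 with spike-in scaling, 10 and 10 with library totals, and 16 and 6 of 22 with kallisto counts. Spike-in scaling and library totals also lowered the median of all genes. There the median log2 ratio of the list was -0.10 and -0.03, beside -0.22 and -0.15 over all genes. With TMM it was 0.12, beside -0.0009. With TMM scaling of RSEM counts 1 of the 20 genes was at least 2-fold apart, beside 4.64% of all genes. It was Lmod1, a leiomodin of smooth muscle thin filaments. Lmod1 had 249 and 595 counts and was 2.33-fold higher in replicate 2 (2.02 to 2.73). With spike-in scaling its log2 ratio was 0.999, just under the 2-fold mark. By kallisto counts 2 of 22 genes were at least 2-fold higher, while 4.65% of all genes were at least 2-fold apart.

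Of the 4 PDGF ligand genes and the second receptor gene, 3 of 5 reached 1 TPM in both libraries, beside 19.7% of all annotated genes. Pdgfb, the ligand that recruits pericytes, was at 6.83 and 5.66 TPM, above its receptor gene Pdgfrb in both libraries. Pdgfa, the main ligand of the alpha receptor, was at 10.35 and 8.22 TPM. Pdgfra, the receptor gene typical of fibro-adipogenic cells, was at 5.92 and 6.21 TPM. Pdgfc (1.16 and 0.84 TPM) and Pdgfd (0.95 and 0.92 TPM) were lowest. None of the 5 was 2-fold apart between the libraries, beside 4.64% of all genes tested. Pdgfra was the 1 gene above equality (log2 ratio 0.10), beside 49.8% of all genes. It was below equality with spike-in scaling or library totals, where the median of all genes was -0.22 and -0.15.

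In the Notch pathway, 10 of 12 genes tested were lower in replicate 2, beside 50.2% of all genes. Among the 10, named after their values were seen, Notch1 (ratio 0.997, interval 0.903 to 1.10) and Dll4 (0.980, 0.786 to 1.22) had intervals that included equality. The median log2 ratio was -0.37, beside -0.0009 over all genes. Spike-in scaling gave the same split, with a median of -0.59 beside -0.22 over all genes, while kallisto gave 8 of 12 lower. The 3 of highest mean level were Jag2, a ligand gene, at 8.92 and 10.5 TPM, Rbpj, the nuclear partner of Notch, at 10.9 and 7.48 TPM, and Hes1, a target gene, at 8.10 and 3.35 TPM. The ligand gene Dll1 was at 3.36 and 0.96 TPM, on 307 and 78 counts, 3.94-fold lower in replicate 2 (3.12 to 5.22). Hes1, with 290 and 141 counts, was 2.08-fold lower (1.71 to 2.59), although its log2 ratio by kallisto was -0.86, inside 2-fold. Notch4, a receptor gene named after its values were seen, went the other way, with 265 and 522 counts, 1.92-fold higher in replicate 2 (1.66 to 2.25). Notch3 itself was 1.12-fold lower. Of 4 satellite cell markers 3 were lower in replicate 2, and Chodl was 1.33-fold higher. The 4 summed to 23.6 and 9.37 TPM, most of it from Myod1 alone (19.9 and 6.51 TPM). The part of these markers in the Notch values was not tested.

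The factors that drive contractile genes were present at unequal levels. Srf was at 32.3 and 35.1 TPM, and the myocardin-related Mrtfb at 11.3 and 10.5 TPM and Mrtfa at 5.97 and 7.66 TPM. Myocd, the gene of myocardin, was named after its values were seen and was at 0.26 and 0.46 TPM on 28 and 40 counts. Myocardin is largely restricted to smooth and cardiac muscle. All 4 were above equality in replicate 2 (median log2 ratio 0.34), beside 49.8% of all genes, and 3 of 4 with spike-in scaling or library totals. The counting intervals of Myocd (0.842 to 2.36) and Mrtfb (0.967 to 1.09) included equality. Of the other 9 regulators in the family of Rgs5, the highest were Rgs3 (3.08 and 3.25 TPM), Rgs2 (1.5 and 1.93 TPM) and Rgs4 (1.90 and 1.30 TPM). Rgs5 was thus the most abundant of the 10 in both libraries. Rgs8, Rgs13 and Rgs21, named after their values were seen, were at 0 counts in each RSEM table, and a count of 0 allows up to 3. Among the angiopoietin genes, by which mural cells signal to the endothelium, Angpt1 was at 4.85 and 4.87 TPM, and the receptor genes Tie1 and Tek were at 4.66 and 4.82 TPM and at 5.20 and 3.84 TPM. None of the 4 genes of that list was 2-fold apart, beside 4.64% of all genes tested.

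**Figure D5:**
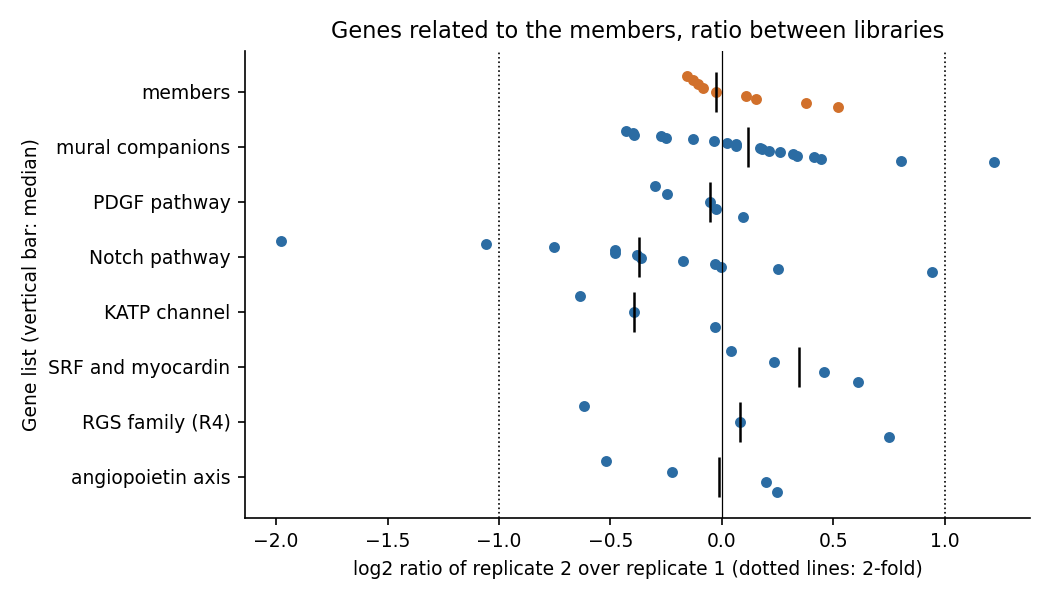
Log2 ratio of replicate 2 over replicate 1 for the genes of each list after TMM scaling, 1 point per gene tested, spaced vertically for display, with a bar at the median. Notch genes lie mostly below 0 (10 of 12, beside 50.2% of all genes). Lmod1, Dll1 and Hes1 are the genes past 2-fold, beside 4.64% of all genes tested. Lmod1 falls just short with spike-in scaling and Hes1 by kallisto. The lists were chosen with earlier results of these data known.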

How the data were processed

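Values from 2 total RNA-seq libraries of 1 group were used. Expected counts per gene and transcript were deposited by the authors and carry RSEM column names, per the file headers. Deposited estimated counts per transcript carry kallisto column names. TPM, deposited with both, was used as given, and kallisto values were summed per gene. RSEM posterior mean TPM, also deposited, served as an alternative. The deposited notes and labels name mm10 and GENCODE M21. The sources used here do not give the aligner or the quantifiers' versions.

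Gene symbols came from the deposited transcript names. Expected counts were rounded to whole numbers, and those of the 9 genes were whole already. Genes whose 2 counts summed to 50 or more were scaled by TMM and turned into log2 CPM with a prior count of 2, in edgeR 4.0.16 under R 4.3.3. Spike-in rows were left out, and the ratio is always replicate 2 over replicate 1. Intervals at 95% are exact conditional binomial intervals which cover only counting error. They take reads as independent, which reads lacking molecular identifiers are not, so they may be too narrow. No test was made, since each gene has 1 value per library. DESeq2 1.42.0 gave alternative size factors. Python 3.11.15 did the rest. Transcript shares are percents of summed TPM per gene. The ratio step was tested on simulated data.

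The members and lists were chosen with earlier results of these data known. Named are all 9 members, their transcripts with at least 10% of the gene in any estimate where forms are described, every KATP and PDGF list gene, and for other lists the 3 highest genes and those at least 2-fold apart. Myocd, Notch1, Dll4, Notch4, Rgs8, Rgs13 and Rgs21 were named outside this rule. Alternatives were other scalings, filters, prior counts, TPM minimums, estimates and quantifiers, and leaving out each library.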

Additional observations from a re-analysis of the deposited data

How the results depend on the processing

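The median over the 9 genes of their mean TPM was 8.14 by RSEM, 10.7 by kallisto and 17.6 when rescaled over nuclear protein-coding genes. The mean share of the downstream Abcc9 end was 12.2% by RSEM and 5.60% by kallisto. The Myh11 insert form took 27.6% and 33.5%, and the short tail 6.87% and 12.7%. Mcam with its exon took 63.7% and 44.9%, and without it 33.95% and 18.6%. Spike-in totals moved the median log2 ratio of all genes to -0.22 and library totals to -0.15. The count of genes at least 2-fold apart was 602 of 12969, 2712 of 23688 with no count filter and 194 of 7870 with a summed count of at least 500, where Cnn1 was not tested. No member was 2-fold apart under any setting tried. No paired analysis was possible because there was 1 group. Depth limits Cnn1 above all.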
